A study of Mus musculus with 2 samples.

Results

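The NF-kB subunits are the products of 5 genes, Rela, Relb, Rel, Nfkb1 and Nfkb2, which were found by symbol among the 55536 annotated genes of the deposited tables. All 5 were present. The RNA came from a nuclear preparation of primary macrophages, grown from the bone marrow of C57BL/6J mice, and was sequenced after removal of ribosomal RNA. Every cell had received Lipid A at 100 ng/ml for 12 hours (Lipid A is the portion of endotoxin recognised through TLR4). After 12 hours of washout the same dose was given again for 60 min. The only group holds 2 biological replicates with the same donor identifier, so nothing shows that they came from separate animals. Age and sex were not collected, per the labels. Unstimulated cells and cells stimulated once were not analysed here, so the values are levels in stimulated cells and not responses. Coordinates are on mm10.

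NF-kB proteins bind DNA as pairs through a domain that all members share, the Rel homology domain. RelA, RelB and c-Rel carry a transactivation domain. Nfkb1 and Nfkb2 encode the long precursors p105 and p100, whose N-terminal parts are the DNA-binding subunits p50 and p52 and whose C-terminal parts hold other subunits in the cytoplasm as IkB proteins do. In macrophages TLR4 signalling releases p50 with RelA or c-Rel from their inhibitors, and the newly active subunits induce Nfkb1, Nfkb2, Rel and Relb themselves. Processing of p100 and nuclear entry of RelB with p52 belong to the slower non-canonical pathway.

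Because these genes are known targets of their own products, the promoters of Rel and Nfkb2 are shown with the matches to the kB consensus in capitals. The consensus was read as runs of G and C around a centre of any bases (3 G, a purine, 2 bases of any kind, 2 pyrimidines and 2 C), on both strands. Sequences run from 250 bases before to 50 bases after a RefSeq start on the assembly GRCm38.p6, the one called mm10. RefSeq promoter sequences were matched for 3 members, Rel, Rela and Nfkb2. Nfkb1 and Relb had no entry. The windows are Rel at chr11:23770920-23771219 (minus strand), Nfkb2 upstream start at chr19:46304487-46304786 (plus strand) and Nfkb2 downstream start at chr19:46305445-46305744 (plus strand).
Rel: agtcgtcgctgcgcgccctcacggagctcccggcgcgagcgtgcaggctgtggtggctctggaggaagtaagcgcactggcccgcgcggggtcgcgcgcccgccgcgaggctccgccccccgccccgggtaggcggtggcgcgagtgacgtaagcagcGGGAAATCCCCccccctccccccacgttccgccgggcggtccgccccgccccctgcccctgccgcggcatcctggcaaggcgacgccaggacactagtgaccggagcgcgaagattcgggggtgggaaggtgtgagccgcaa
Nfkb2 upstream start: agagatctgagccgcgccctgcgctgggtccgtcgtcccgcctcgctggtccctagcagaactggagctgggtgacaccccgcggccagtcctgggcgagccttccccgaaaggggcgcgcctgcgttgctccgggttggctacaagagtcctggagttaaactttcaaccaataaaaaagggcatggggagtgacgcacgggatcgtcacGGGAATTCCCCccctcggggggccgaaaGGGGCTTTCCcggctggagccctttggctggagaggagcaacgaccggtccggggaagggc
Nfkb2 downstream start: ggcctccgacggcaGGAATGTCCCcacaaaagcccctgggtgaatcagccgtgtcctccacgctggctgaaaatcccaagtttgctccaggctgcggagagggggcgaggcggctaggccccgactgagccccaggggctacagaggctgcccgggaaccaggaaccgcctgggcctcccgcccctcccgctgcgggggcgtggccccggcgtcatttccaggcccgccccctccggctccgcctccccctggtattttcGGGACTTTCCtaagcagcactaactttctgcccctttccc
The Rel window held GGGAAATCCC, a match on both strands, at -92 to -83 (the start is position 1), with another match shifted by 1 base. The upstream Nfkb2 window held the palindrome GGGAATTCCC at -39 to -30, again with a match shifted by 1 base, and GGGGCTTTCC at -11 to -2. The downstream Nfkb2 window held GGGACTTTCC at 11 to 20 and, on the other strand, a match at -236 to -227. Another Nfkb2 window overlaps the downstream one and holds the same GGGACTTTCC. The single Rela window had no match to these letters. In all, 4 of the 5 member windows had a match, beside 2779 of 32851 windows of the same length (8.46%). More than 1 match, with shifted matches counted apart, stood in 402 of these windows (1.22%). Most member windows are of Nfkb2 and 2 of them share a match. By gene, Rel and Nfkb2 had a match and Rela had none, beside a match in 2581 of 27025 genes (9.55%). The windows were not matched for their content of G and C. A match is a description of the letters and does not show binding.

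All 5 subunit genes were present at 10 TPM or more in both libraries (TPM is the length-corrected share of all transcripts, scaled to a fixed total). Among 22015 protein-coding genes of the nuclear chromosomes (nuclear protein-coding genes below) 14.8% reached that level. Summed over the 5 genes the level was 345.84 and 306.38 TPM in replicates 1 and 2, or 0.141% and 0.177% of all expected counts. In RNA from a whole population, fewer cells of a type and less RNA per cell cannot be told apart. TPM of the first quantifier were lower in replicate 2 for most genes, with a median log2 ratio, replicate 2 over replicate 1, of -0.47 over 8773 genes of 1 TPM or more. In the second quantifier, introduced below, the median ratio of the same genes was 0.39, so TPM pairs of the libraries carry a shift of opposite sign in the 2 sets of estimates.

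Among the subunits with a transactivation domain, Rel (ENSMUSG00000020275.9, chromosome 11, 23736847 to 23770970, minus strand), which encodes c-Rel, was the highest. It had 76.10 and 77.37 TPM in replicates 1 and 2, or 76.7 ± 0.898 TPM (SD, n = 2). Here and below, SDs of TPM include the shift between the libraries, so they do not rank the genes by how well replicates match. Relb (ENSMUSG00000002983.17, chromosome 7, 19606217 to 19629438, minus strand) had 39.40 and 24.30 TPM. Rela (ENSMUSG00000024927.8, chromosome 19, 5637483 to 5648130, plus strand), whose product p65 is the main transactivating partner of p50, had 32.73 and 25.24 TPM. Rel thus lay above both in each library, while the values of Relb (31.9 ± 10.7 TPM; SD, n = 2) and Rela (29.0 ± 5.30 TPM; SD, n = 2) overlapped and changed places between the libraries. By mean level, Rel ranked 520th, Relb 1382nd and Rela 1530th among the nuclear protein-coding genes.

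Of the precursor genes, Nfkb1 (ENSMUSG00000028163.17, chromosome 3, 135584655 to 135691547, minus strand) had the highest level of the 5 subunits over all annotated transcripts. It had 137.59 and 132.29 TPM in replicates 1 and 2 (134.94 ± 3.75 TPM; SD, n = 2) and ranked 278th. Nfkb2 (ENSMUSG00000025225.15, chromosome 19, 46304320 to 46312385, plus strand) had 60.02 and 47.18 TPM (53.6 ± 9.08 TPM; SD, n = 2) and ranked 786th. The order Nfkb1, Rel, Nfkb2 was the same in both libraries with no overlap between neighbours, and Nfkb2 lay above Relb and Rela in both. Within the family Nfkb1 held 41.5 ± 2.40% of the summed TPM, Rel 23.6 ± 2.30%, Nfkb2 16.4 ± 1.38%, Relb 9.66 ± 2.45% and Rela 8.85 ± 0.867% (SD, n = 2 each).

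The second set of deposited estimates, made from reads rather than from alignments and called the second quantifier here, gave the same order of the first 3 genes. There Nfkb1 had 50.4 and 85.1 TPM in replicates 1 and 2, and Rel 23.4 and 41.5 TPM. Nfkb2 had 22.1 and 32.6 TPM, Rela 15.4 and 26.6 TPM, and Relb 15.5 and 19.2 TPM. Nfkb1 stood clear of the others in these estimates too. The values of Rel and Nfkb2, of Nfkb2 and Rela, and of Rela and Relb overlapped over the libraries. These TPM carry the shift between the libraries given above. Within each library Rel lay above Nfkb2 and Nfkb2 above Rela, while Rela and Relb changed places. Rel held 18.4% and 20.3% of the summed TPM in replicates 1 and 2, Nfkb2 17.4% and 15.9%, and Rela 12.1% and 13.0%.

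**Figure D1:**
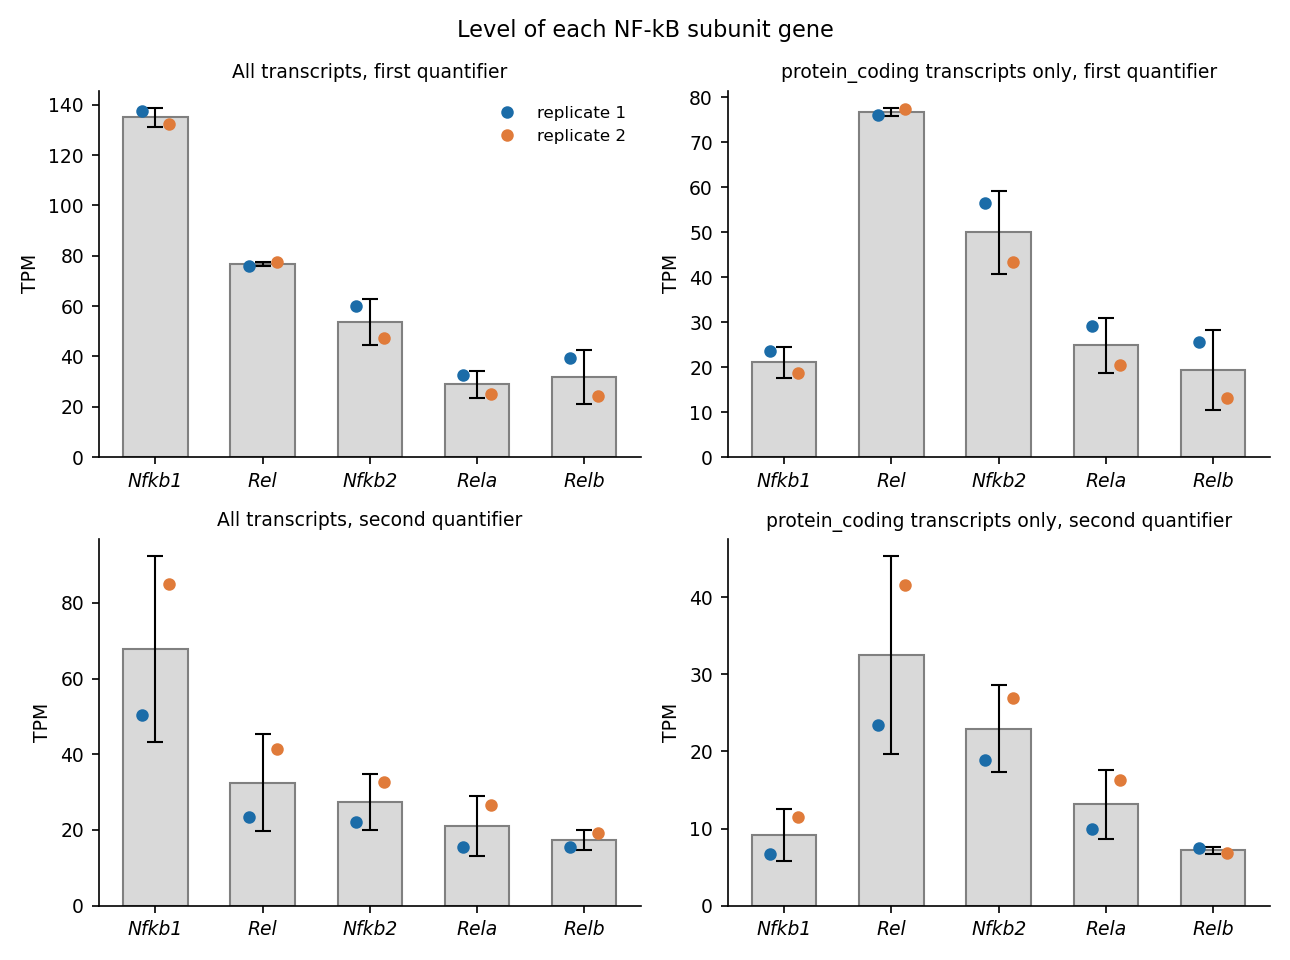
TPM (y axis, linear, from 0) of the 5 subunit genes, over all transcripts (left) and over protein_coding transcripts only (right), for the first (top) and second quantifier (bottom). Points are the libraries, bars their mean and lines the SD (n = 2); Nfkb1 is first at 134.94 TPM over all transcripts but below Rel, Nfkb2 and Rela at 21.1 TPM over protein_coding transcripts in the first quantifier.

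As estimated, the lead of Nfkb1 lay in transcripts that are annotated as not coding for protein. Of these, Nfkb1-204 and Nfkb1-202, described below, share exon sequence with coding transcripts of the gene. The Nfkb1 level over protein_coding transcripts thus depends on how each quantifier divided the shared reads. Restricted to transcripts of the class protein_coding, Nfkb1 had 23.55 and 18.70 TPM in replicates 1 and 2, and by mean stood below Rel, Nfkb2 and Rela. On this measure Rel, which has a single annotated transcript, was first with the values given above, and Nfkb2 was second with 56.55 and 43.36 TPM. Rela followed with 29.16 and 20.51 TPM, and Relb had 25.68 and 13.16 TPM. Rel and Nfkb2 stood above the other 3 in both libraries, and the values of Rela, Nfkb1 and Relb overlapped. Within each library Rela lay above Nfkb1 and Relb, which changed places. The second quantifier gave the same order by means, with Nfkb1 at 6.74 and 11.6 TPM against 23.4 and 41.5 TPM for Rel.

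The difference shows in the balance between precursor and transactivating subunits. Over all transcripts the summed precursor genes Nfkb1 and Nfkb2 had 197.61 and 179.47 TPM in replicates 1 and 2, and the summed Rela, Relb and Rel had 148.23 and 126.91 TPM. The log2 ratio of precursor over transactivating genes was 0.46 ± 0.060 (SD, n = 2). Over protein_coding transcripts the sums were 80.10 and 62.06 TPM for the precursor genes and 130.94 and 111.04 TPM for the transactivating genes, and the log2 ratio was -0.77 ± 0.092 (SD, n = 2). The second quantifier gave 0.42 over all transcripts and -0.71 over protein_coding transcripts. So the direction of this ratio turned with the transcripts counted, in both sets of estimates. The ratio over protein_coding transcripts also depends on the division of shared Nfkb1 reads. It turned as well over all transcripts when expected counts were used without correction for length (-0.38 ± 0.034; SD, n = 2).

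Transcripts of the class retained_intron, which keep some intron sequence and have no annotated coding frame, held 74.9% of Nfkb1 TPM in replicate 1 and 78.3% in replicate 2. In the second quantifier they held 73.8% and 76.1%. Relb had 29.9% and 40.6% of its TPM on such transcripts, Rela 9.04% and 11.8%, and Nfkb2 3.48% and 5.26%. No such transcript is annotated for Rel. Nfkb1 was the only one of the 4 members with such transcripts that had over 50% of its TPM on them in both libraries. Of 2291 nuclear protein-coding genes at 10 TPM or more with a retained_intron transcript, 10.4% did so, and the median share was 23.1% in replicate 1 and 25.6% in replicate 2. In 36 of these genes the mean share was above that of Nfkb1. Reads from the intron parts of such transcripts cannot be told apart from reads of RNA that is not yet spliced, which a nuclear preparation holds. Reads from their exon parts can be shared with coding transcripts, as in Nfkb1-202, of whose bases 7.46% are intron sequence. An unspliced RNA of Nfkb1 may thus add to several of its annotated transcripts, while the only Rel transcript holds no intron sequence. The level and share of Nfkb1 and the precursor ratio over all transcripts therefore depend on which intron sequence is annotated for each gene.

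**Figure D2:**
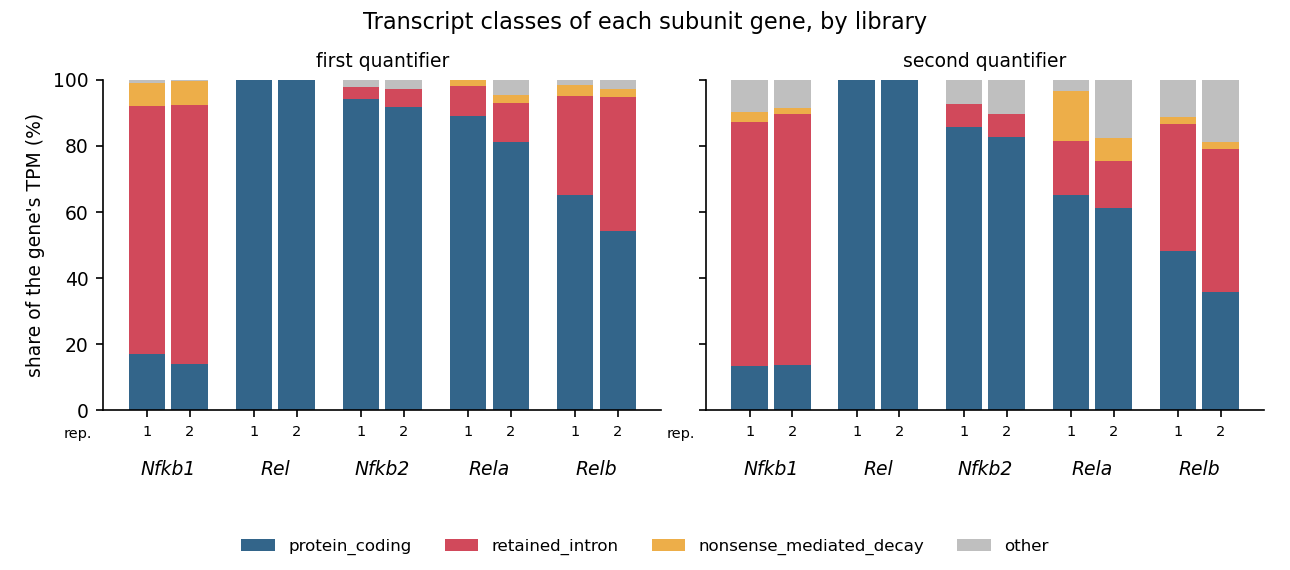
Share of each gene's TPM (y axis, percent) by annotated transcript class, with 1 bar for each library (1 and 2 on the x axis), for the first (left) and second quantifier (right). Retained_intron transcripts fill most of the Nfkb1 bars, 74.9% and 78.3% in the first quantifier, and none of the Rel bars.

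The 4 retained_intron transcripts of Nfkb1 read different parts of the gene. Nfkb1-204 had 43.69 and 43.58 TPM in replicates 1 and 2, more than any other transcript of the gene. It starts at the upstream end of the gene, splices introns 1 to 11 of the 24 in the full-length model Nfkb1-201, and then reads on into intron 12, so that 53.9% of its 3383 bases are intron sequence. Nfkb1-210 had 24.28 and 23.35 TPM, and Nfkb1-208 22.06 and 23.81 TPM. Both are single unspliced blocks. Nfkb1-210 lies mostly over intron 16 and reaches only a few bases into intron 15, and 92.9% of its bases are intronic. Nfkb1-208 lies over introns 7 and 8, and 96.0% of its bases are intronic. Nfkb1-202, which starts inside intron 12 and splices introns 13 to 24, had 13.04 and 12.89 TPM. The second quantifier also put Nfkb1-204 first, at 15.0 and 27.0 TPM (29.7% and 31.8% of the gene, beside 31.8% and 32.9% in the first).

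Of the coding transcripts of Nfkb1, named here after their values were seen, Nfkb1-206 had 11.91 and 8.18 TPM. It carries the same 2913 coding bases as the full-length model. Nfkb1-203, with 1600 coding bases and intron 13 as the first intron it splices, had 11.64 and 10.52 TPM. The full-length model Nfkb1-201 was listed at 0 TPM in both libraries in the first quantifier, and the second gave it 1.23 and 0.793 TPM in replicates 1 and 2. Nfkb1-201 and Nfkb1-204 have the same first 11 exons apart from 1 base at the start, so the division of reads between them rests on the sequence downstream of exon 12.

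The sequences at intron 12, 4118 bases long (chromosome 3, 135608296 to 135612413), show what separates a spliced reading of Nfkb1 from the readings that hold intron sequence. The 3 stretches run 30 bases to each side of the boundary on the minus strand, and the capitals mark the first and the last bases of the intron.
Nfkb1-206, exon 12 joined to exon 13: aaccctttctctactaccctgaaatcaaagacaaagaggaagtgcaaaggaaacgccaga
Nfkb1-204, exon 12 read on into intron 12: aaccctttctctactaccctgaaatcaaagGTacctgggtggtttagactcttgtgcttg
Nfkb1-202, intron 12 read on into exon 13: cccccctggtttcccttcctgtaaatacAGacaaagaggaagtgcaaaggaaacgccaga
The exon parts of the stretches are the same, and the intron opens with GT and closes with AG.

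**Figure D3:**
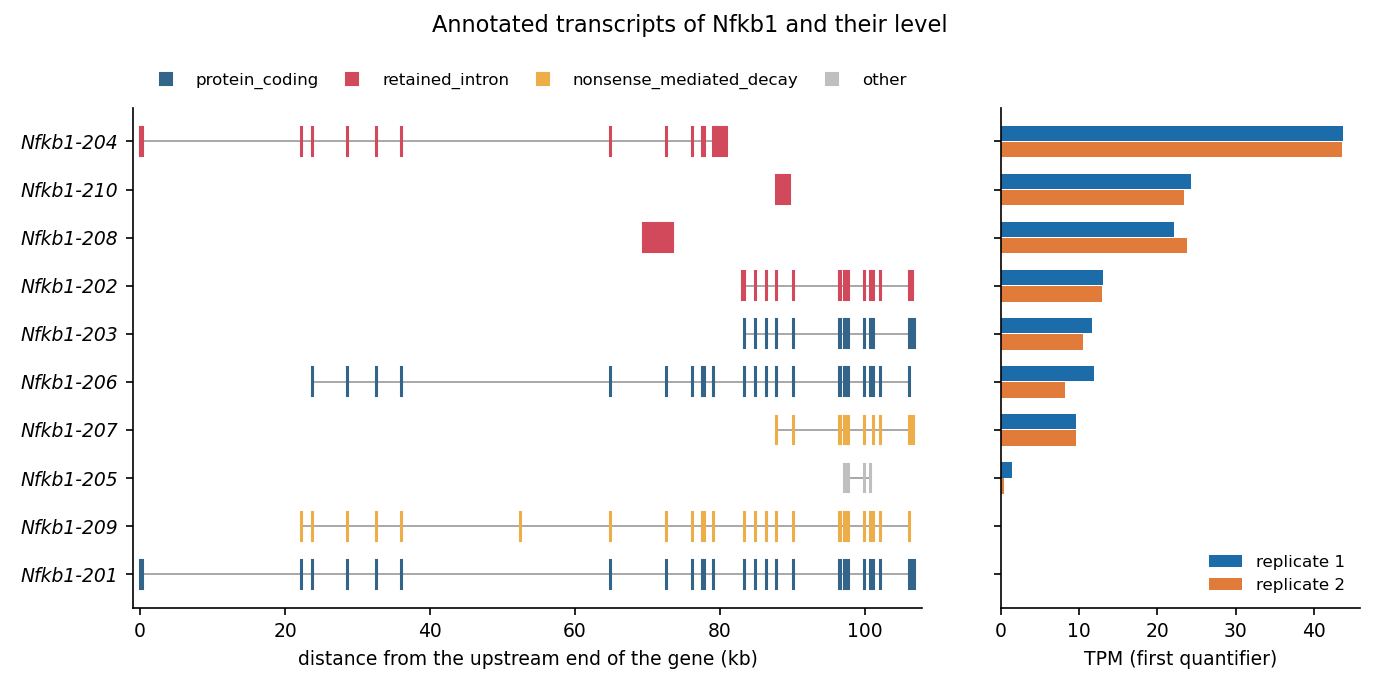
Exons (blocks) and introns (lines) of the 10 annotated Nfkb1 transcripts, coloured by class, against the distance from the upstream end of the gene in kb (left), and their TPM in each library in the first quantifier (right). Nfkb1-204 and the single blocks Nfkb1-210 and Nfkb1-208 lead with 43.69, 24.28 and 22.06 TPM in replicate 1, and the full-length Nfkb1-201 has no TPM.

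A further annotated gene, Gm43430 (TEC, a class that awaits experimental proof), lies within intron 6 of Nfkb1 on the same strand. It spans 3897 bases and had 41.88 and 38.21 TPM in replicates 1 and 2. It is counted apart from Nfkb1 and enters none of the Nfkb1 values above. Its reads cannot be told apart from those of Nfkb1 RNA that still holds intron 6.

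Relb differed from Nfkb1 in what its retained_intron transcripts hold. All 3 of them, Relb-205, Relb-206 and Relb-208, share a longer exon 6 (chromosome 7, 19616346 to 19617403, 1058 bases) in place of the coding model's exon 6 of 92 bases. The longer exon adds 966 bases of intron 5. These 3 transcripts together held 29.9% of Relb TPM in replicate 1 and 40.6% in replicate 2, and 38.4% and 43.3% in the second quantifier. The stretches at the join, 30 bases to each side on the minus strand with exon 6 in capitals, show the alternative starts of this exon.
Relb-202, exon 5 joined to exon 6: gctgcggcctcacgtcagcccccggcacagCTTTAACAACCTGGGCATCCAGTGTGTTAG
Relb-206, exon 5 joined to the longer exon 6: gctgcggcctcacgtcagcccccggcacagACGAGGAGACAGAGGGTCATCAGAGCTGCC

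Relb transcripts also differ in a coding exon of 9 bases, exon 3 (chromosome 7, 19622926 to 19622934), which 7 transcripts hold and which Relb-201 and Relb-206 skip. Its length is a multiple of 3, so the reading frame is the same with and without it. The sequences show the exon in capitals between the last 30 bases of exon 2 and the first 30 of exon 4, on the minus strand.
Relb-202, with exon 3: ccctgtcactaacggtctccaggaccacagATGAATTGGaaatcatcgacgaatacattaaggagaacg
Relb-201, exon 2 joined to exon 4: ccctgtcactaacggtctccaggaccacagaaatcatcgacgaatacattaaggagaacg
Of the TPM on transcripts that either hold or skip this exon, those that hold it had 76.7% in replicate 1 and 74.9% in replicate 2. The second quantifier gave 81.0% and 76.8%. The single transcripts were divided differently. Relb-202 had 21.94 and 12.20 TPM in the first quantifier, and 2.99 and 0.906 TPM in the second. Relb-201 was listed at 0 TPM in both libraries in the first quantifier and had 2.81 and 4.46 TPM in the second, while Relb-206, which skips the exon too, had 8.97 and 6.09 TPM in the first and at most 0.128 TPM in the second. The share of exon 3 was therefore close between the estimates where the levels of single transcripts were not.

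Nfkb2 was almost wholly on protein_coding transcripts, with 94.2% of TPM in replicate 1 and 91.9% in replicate 2. They start at 4 sites, and 3 of them carry 2697 coding bases, the other 2634. Nfkb2-202, which starts farthest downstream (46305696, within the downstream promoter window shown above), was the highest, with 27.66 and 17.95 TPM in replicates 1 and 2, or 46.1% and 38.1% of the gene. Nfkb2-206, from the most upstream start (46304320), had 14.46 and 11.37 TPM, or 24.1% in both libraries. Nfkb2-201, whose start at 46304744 lies in the upstream window, had 11.96 and 13.04 TPM, and Nfkb2-204, from 46304800, had 2.47 and 1.00 TPM. Thus the start of Nfkb2-202 led among single starts in both libraries. The sum of the upstream starts 46304320, 46304744 and 46304800 lay above it in both libraries in the first quantifier. In the second quantifier that sum lay below it in both. Which side of the promoter region is used more therefore depends on the quantifier.

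In the second quantifier Nfkb2-202 was first as well, with 47.8% in replicate 1 and 43.4% in replicate 2, and Nfkb2-206 second with 18.9% and 20.6%. The neighbouring starts of Nfkb2-201 and Nfkb2-204, close to each other, changed places. Nfkb2-201 held 6.47% and 2.56% there, and 19.9% and 27.6% in the first quantifier. Nfkb2-204 held 12.5% and 16.1%, and 4.12% and 2.12% in the first. The short transcript Nfkb2-203, which does not code for protein, had 1.38 and 1.33 TPM in the first quantifier and reached 10.4% of the gene in replicate 2 in the second.

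**Figure D4:**
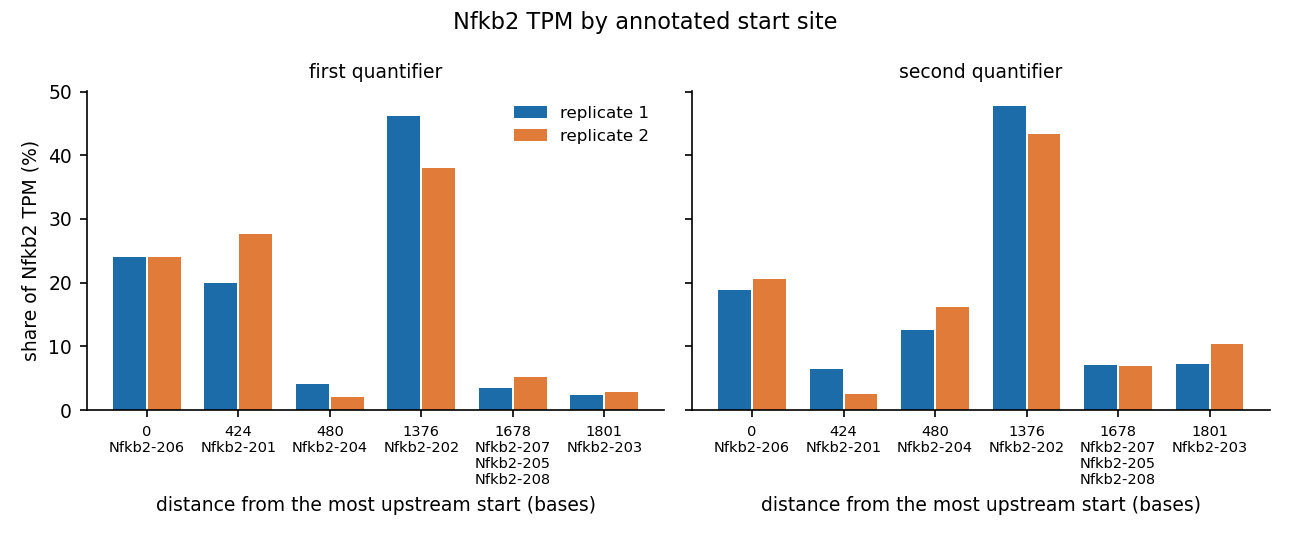
Share of Nfkb2 TPM (y axis, percent) by annotated start site, ordered by the distance in bases from the most upstream start, with 1 bar for each library, for the first (left) and second quantifier (right). The start of Nfkb2-202 holds the largest share in every panel and library, between 38.1% and 47.8%.

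Genes on the opposite strand touch both ends of Nfkb2. AC114539.1, a noncoding RNA annotated as sharing a bidirectional promoter, overlaps it by 1292 bases and had 18.34 and 12.86 TPM in replicates 1 and 2. Psd, a protein-coding gene, overlaps it by 299 bases and had 33.42 and 21.91 TPM. The use of strand in counting is not given in the sources used here, so reads in these overlaps cannot be assigned to either gene with certainty. The other 3 members, Rel, Rela and Relb, overlap no annotated gene.

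Rela was mainly on its full-length coding transcript in the first quantifier, less so in the second. Rela-201 had 28.38 and 19.30 TPM in replicates 1 and 2, or 86.7% and 76.5% of the gene, and in the second quantifier 51.7% and 37.5%. The retained_intron transcript Rela-203, 786 bases from the downstream part of the gene, had 2.96 and 2.97 TPM. The short Rela-205 (363 bases, of the class protein_coding) had 0.78 and 1.21 TPM, or 2.38% and 4.79%, and in the second quantifier 13.4% and 23.8%. The noncoding Rela-207 had 0 and 1.16 TPM and reached 13.5% in replicate 2 in the second quantifier. At 1950 expected counts in replicate 1 and 1223 in replicate 2, Rela rests on the fewest reads of the 5 genes, and its short transcripts on under 50 expected counts each.

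The remaining transcripts that the naming rule covers belong to Relb. Relb-208 had 2.80 and 3.76 TPM, and Relb-205 was listed at 0 TPM in both libraries in the first quantifier and had 3.40 and 4.37 TPM in the second. Relb-209, a short transcript from a downstream start, had 2.92 and 0.96 TPM. The noncoding Relb-204 had 0.67 and 0.64 TPM and held 11.1% and 18.7% of the gene in the second quantifier. The start that 6 transcripts share (19629438) held 87.6% of Relb TPM in replicate 1 and 90.8% in replicate 2, and 76.0% and 71.4% in the second quantifier.

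Over the whole family, 38.98% of the summed TPM in replicate 1 and 43.5% in replicate 2 lay on transcripts of other classes than protein_coding. Over all 22015 nuclear protein-coding genes the share was 24.5% and 28.9%. Nfkb1 had 82.9% and 85.9% on such transcripts and Relb 34.8% and 45.8%. Nfkb2 (5.78% and 8.08%) and Rela (10.9% and 18.7%) were below the share over all genes, and Rel has no such transcript. In the second quantifier the family share was 47.5% and 49.7%, beside 33.6% and 36.6% over all genes. There Nfkb2 was again below it, at 14.4% and 17.3%, and Rela slightly above it, at 34.9% and 38.8%.

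After TMM normalisation of expected counts (scaling by a trimmed mean of gene ratios) Nfkb1 had 7972 normalised counts in replicate 1 and 10650 in replicate 2, Rel 11756 and 16385, and Nfkb2 3827 and 4071. Rela had 1577 and 1512, and Relb 1806 and 1625. The log2 ratio, replicate 2 over replicate 1, was 0.48 for Rel (95% exact binomial interval 0.44 to 0.51), 0.42 for Nfkb1 (0.38 to 0.46) and 0.09 for Nfkb2 (0.02 to 0.15). For Rela it was -0.06 (-0.16 to 0.04) and for Relb -0.15 (-0.25 to -0.05). Counting error alone is covered by these intervals, as molecules were not tagged. None of the 5 was over 2-fold apart, which with 5 genes is near the share of 8.95% among 14052 genes that averaged at least 10 counts, and the ratios of Rel and Nfkb1 stood at the 84.0th and 81.4th percentile of these genes.

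Relative to the median gene, Rel and Nfkb1 were higher in replicate 2, and Relb lower, over expected counts, over counts of the second quantifier and over TPM. Scaling by TMM, DESeq2 size factors or total counts gives the same value once it is set against the median gene, so these are not separate checks. Nfkb2 was slightly higher over expected counts (0.087) and TPM (0.096), and lower in the second quantifier (-0.025). Rela was lower over expected counts (-0.062) and the second quantifier (-0.17), and higher over TPM (0.068). TPM as deposited carry the shift between the libraries given above, and so do their intervals. The deposited intervals of the TPM estimates did not overlap between the libraries for Nfkb2, Rela and Relb, as for 38.1% of the 14052 genes. For Relb they ran from 36.3 to 39.9 TPM in replicate 1 and from 22.2 to 25.2 TPM in replicate 2. These bounds cover the estimation within a library, and their level is not stated. The libraries also differ in depth and in the RNA put in, 1 µg in replicate 1 and 500 ng in replicate 2, and the part of this in the ratios was not tested.

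**Figure D5:**
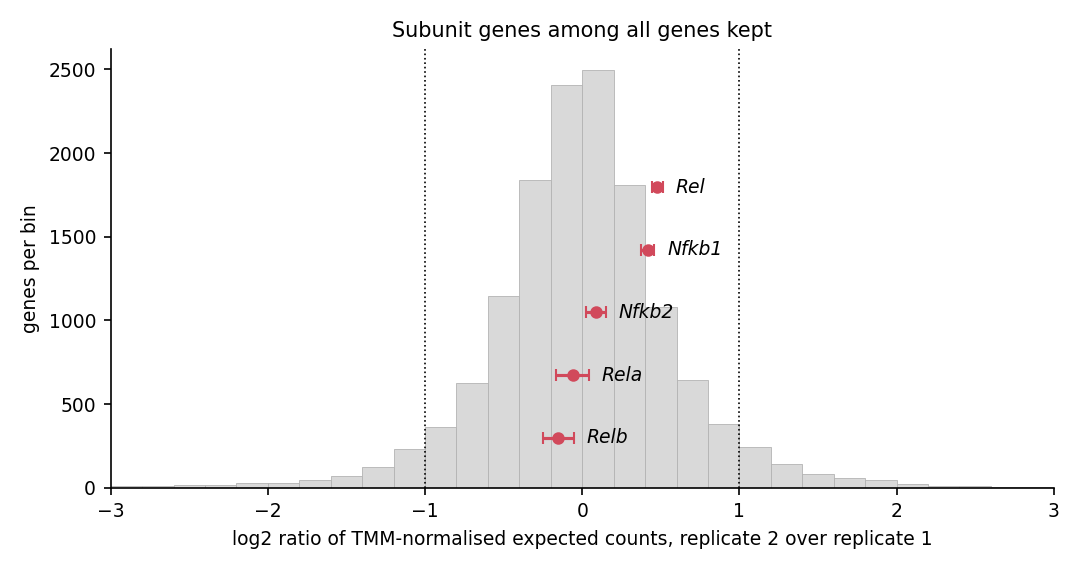
Number of genes (grey bars, y axis) by log2 ratio of TMM-normalised expected counts, replicate 2 over replicate 1 (x axis), with the 5 subunits as points at arbitrary heights and their 95% counting intervals. The subunits lie between -0.15 and 0.48, within the dotted lines that mark a 2-fold difference.

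The pathway genes listed around the subunits were present almost throughout. Of 67 genes in 6 lists around them, 66 reached 1 TPM in both libraries, 43 reached 10 TPM and 16 reached 100 TPM, which is 98.5%, 64.2% and 23.9% of the lists. Over all nuclear protein-coding genes the shares were 39.9%, 14.8% and 1.37%. The lists were chosen with earlier results of these data known, so these shares describe the lists and are no test of the pathway. The lists had a median of 28.0 and 18.4 TPM in replicates 1 and 2, and all nuclear protein-coding genes one of 0.28 and 0.21 TPM. None of the 66 genes with a ratio was over 2-fold apart between the libraries, beside 8.95% of all genes kept. That share covers genes down to a mean of 10 counts, and the sets were not matched for level. Of 33 list genes at 10 TPM or more with a retained_intron transcript, 3 (9.09%) had over 50% of their TPM on such transcripts in both libraries, close to the 10.4% over all such genes. They were Cd83, a direct target named here after its values were seen (85.6% and 78.4%), Hdac1 (70.1% and 72.9%) and Ikbkb (61.9% and 64.4%).

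The IkB family list holds inhibitors that hold the subunits back as well as nuclear IkB proteins, and all 6 of its genes reached 10 TPM. Nfkbia, which encodes IkBα, had 471 and 248 TPM in replicates 1 and 2, the nuclear IkB protein gene Nfkbiz 311 and 245 TPM, and Nfkbie, for IkBε, 82.8 and 59.8 TPM. Of 7 genes for the IKK and TAK1 kinase complexes, of which the IKK kinases mark the inhibitors for destruction, 3 reached 10 TPM. The IKKβ gene Ikbkb had 59.7 and 57.0 TPM, Tab2, an adaptor of TAK1, 40.9 and 38.8 TPM, and the IKKα gene Chuk 30.5 and 21.4 TPM.

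In the non-canonical pathway, 4 of 10 genes reached 10 TPM. The receptor gene Cd40 had 226 and 213 TPM, and the ubiquitin ligase genes Birc3 and Birc2 had 166 and 113 TPM, and 37.5 and 27.2 TPM. Tnfrsf13c, for the BAFF receptor of B cells, had 0.09 TPM in replicate 1 and was listed at 0 in replicate 2. Among 10 partners and processing factors of the precursors, 4 reached 10 TPM. Map3k8, for the kinase that p105 binds and restrains, had 41.9 and 19.0 TPM, and Fbxw11 and Rbx1, for parts of the ligase that acts on p105 and p100, had 28.0 and 19.5 TPM, and 20.3 and 12.8 TPM.

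Among 16 coactivators and modifiers of the subunits, 8 reached 10 TPM. The deacetylase gene Hdac1 had 35.3 and 29.8 TPM and the acetyltransferase gene Ep300 39.7 and 20.97 TPM. All 18 direct targets of the subunits reached 10 TPM and 12 reached 100 TPM. The chemokine gene Ccl5 had 1761 and 892 TPM, the cytokine gene Tnf 1424 and 999 TPM, and the chemokine gene Cxcl2 563 and 402 TPM.

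Factors that often act on the same genes were present as well. Of 9 interferon regulatory factors, 7 reached 10 TPM, led by Irf7 (533 and 208 TPM), Irf1 (454 and 226 TPM) and Irf5 (42.7 and 28.3 TPM). Irf4 had 0.58 and 1.09 TPM and was over 2-fold apart (log2 ratio 1.37). Of 10 genes for AP-1 proteins and ATF3, 7 reached 10 TPM, with Junb at 206 and 107 TPM and Atf3 at 110 and 58.6 TPM. In this list 3 genes were over 2-fold apart, namely Jun (96.2 and 35.0 TPM, log2 ratio -1.01), Fosl2 (3.07 and 5.73 TPM, 1.38) and Fosb (0.28 and 0.89 TPM, 2.50). Fosl1 had 0 and 0.04 TPM.

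The cells carried the markers of their label. All 8 macrophage markers reached 10 TPM, among them Lyz2 (2211 and 1413 TPM), Adgre1 (996 and 491 TPM) and Csf1r (295 and 225 TPM), and Fcgr1 (178 and 51.1 TPM) was over 2-fold apart. None of 17 markers of neutrophils, T cells, B cells, dendritic cells and stromal cells reached 1 TPM in both libraries in the first quantifier. They summed to 2.96 and 2.01 TPM in replicates 1 and 2, and Elane, Cd3e, Cd3g and Trac were listed at 0 in both. The highest were Pecam1 (1.48 and 0.53 TPM), S100a8 (0.55 and 0.32 TPM) and Zbtb46 (0.28 and 0.39 TPM). Camp, Cd79a, Flt3, Ly6g, Mpo, Ms4a1, Pdgfra and Xcr1 had at most 0.25 TPM in either library. Pecam1 and Col1a1 (0.06 and 0.10 TPM) were over 2-fold apart, in opposite directions. In the second quantifier Pecam1, a gene of endothelial cells that leukocytes also express, had 1.59 and 5.29 TPM, above 1 TPM in both libraries and higher in replicate 2.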

How the data were processed

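Ribosome-depleted RNA of 2 libraries of 1 group was analysed. Per the readmes deposited with the tables, the build is mm10 and the annotation GENCODE M21. RSEM-format gene and transcript tables come from transcriptome alignments and kallisto-format tables (the second quantifier) from reads. For the aligner, tool versions and use of strand, nothing is given in the sources used here. The authors deposited expected counts, in which ambiguous reads are shared out, and TPM, which corrects them for length. The deposited interval bounds of TPM, used as a score, surround a posterior mean, so a TPM can lie outside them. The deposited percent of a gene on each transcript was recomputed from TPM. The description names a nucleoplasmic fraction, the other labels a nuclear one.

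Expected counts on genes totalled 23630328 in replicate 1 and 15687634 in replicate 2. Rows that name no gene (1.19% and 0.215% of all expected counts) were left out. The replicates differed beyond counting error and are not 1 library deposited again. Rounded counts were scaled by TMM (edgeR 4.0.16, R 4.3.3) over genes averaging at least 10, with size factors of DESeq2 1.42.0 as an alternative. Tables were made in Python 3.11.15 with pandas 2.3.3, numpy 2.4.6 and scipy 1.17.1. The 1 group allows no contrast and no test, and SDs over 2 libraries are imprecise. The code for the ratios was checked on simulated counts.

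The members and lists were chosen with earlier results of these data known. Named were all members, their transcripts at 10% or more of the gene in either library by either quantifier, overlapping genes and, per list, the 3 highest genes, those below 1 TPM in either library and those over 2-fold apart. A few genes that this rule covers are not reported here. Alternatives were the other quantifier, scalings, floors, filters, transcript classes and single libraries.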

Additional observations from a re-analysis of the deposited data

How the results depend on the processing

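No paired analysis was possible because the series holds 1 group. The alternatives with protein_coding transcripts for the precursor ratio or in the second quantifier, those for the retained_intron share of Nfkb1, and the single-gene ratios were chosen after seeing the data. All 5 members stayed at 10 TPM or more under each alternative estimate, scaling, floor of 5 or 20 TPM and in each library. None was over 2-fold apart under any scaling, nor over 1.5-fold with TMM. With TPM, Relb passed 1.5-fold as deposited (log2 ratio -0.70) and Rel when rescaled (0.61).

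Shares of the summed subunit level moved most with the length correction and the transcripts counted. Over expected counts they were 30.3% for Nfkb1, 45.7% for Rel, 13.0% for Nfkb2, 5.14% for Rela and 5.72% for Relb. Over protein_coding transcripts they were 11.0% for Nfkb1, 40.4% for Rel, 25.9% for Nfkb2 and 12.8% for Rela, and in the second quantifier 10.7%, 37.7%, 27.3% and 15.4% for the same genes. The second quantifier over all transcripts moved Rel to 19.3% and Rela to 12.6%. The share on other classes than protein_coding was 48.6% in the second quantifier and 29.7% over expected counts, and the retained_intron share of Nfkb1 was 81.5% over expected counts. The log2 ratio of precursor over transactivating genes reversed to -0.38 over expected counts, which are not divided by length, and to -0.77 and, in the second quantifier, -0.71 over protein_coding transcripts.

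The median ratio of the members relative to all genes, 0.087, reversed to -0.025 in the second quantifier, which is the value of Nfkb2. That of Rela, -0.062, reversed to 0.068 with TPM as deposited and 0.096 with rescaled TPM; the cause was not tested. Genes over 2-fold apart numbered 1257, against 2270 with TPM as deposited, 6575 with no filter on low counts and 2730 in the second quantifier. Pathway genes numbered 66 at a floor of 1 TPM, 31 at a floor of 20 TPM and 35 in the second quantifier, in place of 43.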
